A study of Mus musculus with 2 samples.

Results

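CD8 T cells that held transcripts of the receptors Klrg1, S1pr5 or Cx3cr1 were picked from all barcodes with at least 500 UMIs (unique molecular identifiers, each counting 1 captured transcript) and under 20% mitochondrial UMIs. A barcode was taken if the T cell receptor complex genes Trac, Cd3d, Cd3e and Cd3g summed to 2 UMIs or more, and if it had at least 1 UMI of Cd8a or Cd8b1, at least 2 of the chemokine gene Ccl5 and at least 1 UMI of S1pr5, Cx3cr1 or Klrg1. It also had to have 0 UMIs of Cd4, Cd79a, Cxcr6, Mki67 and Top2a. This gave 372 effector CD8 T cells among 20364 kept cells. The library from C435A tumours held 270 of them among 10313 kept cells, and the library from wild-type tumours held 102 among 10051.

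The study compared immune cells from melanoma metastases that the mouse cell line B16F10 had formed in the lungs of C57 mice. In one group the tumour cells carried the IRF7-C435A mutant, a form of the transcription factor IRF7 with 1 amino acid exchanged, and in the other group their genotype was wild-type. The mutation belongs to the tumour cells, so the T cells of both groups were the host's own. Each group had 1 library of live CD45-positive, 7-AAD-negative cells, sorted after collagenase digestion at 37 °C, and the labels give neither the number of mice, nor their age, nor whether cells of several mice were pooled. The labels call the cells melanoma cells, although the sort was for CD45, which marks immune cells. With 1 library per group there was no test between the groups: intervals in brackets are at 95% and stand for the error of counting alone, and mouse-to-mouse spread was not measured.

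CD8 T cells that have met antigen divide and become effectors, which kill target cells with perforin and granzymes. Those that carry Klrg1, S1pr5 and Cx3cr1 are known as a short-lived, migrating population. S1pr5 is a receptor for the lipid sphingosine 1-phosphate, whose high level in blood draws cells out of tissue, Cx3cr1 binds the chemokine fractalkine on vessel walls, and Klrg1 is an inhibitory receptor of terminally differentiated lymphocytes. The transcription factors T-bet (Tbx21) and Zeb2 drive this state, while Cxcr6 marks CD8 T cells that stay in lung and tumour tissue. Whether the cells studied here lay in vessels or in tissue was not measured.

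The libraries held 59615672 UMIs over 10373 barcodes (C435A) and 54934397 UMIs over 10156 barcodes (WT), with medians of 3401 and 2785 UMIs per barcode. The effector cells had medians of 4161 UMIs in the C435A library and 2732.5 in the WT library, and of 1.34% and 1.58% mitochondrial UMIs. The 2 libraries had 24 barcode sequences in common. In each library 1 effector cell carried such a barcode, and 0 were common to effector cells of both. Because the cells of the C435A library were deeper, shares of cells with a transcript are given after each cell was thinned at random to 1500 UMIs. Shares taken before thinning are marked as such.

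Before any comparison, the effector cells were checked for transcripts of other lineages, since a droplet with 2 cells passes the same gates. Markers of at least 1 other lineage (NK cell, B cell, monocyte and macrophage, neutrophil, dendritic cell, melanoma or red cell) reached 10 UMIs in 46 of 270 cells of the C435A library (17.0%) and in 20 of 102 cells of the WT library (19.6%). These barcodes were deep, with medians of 6846.5 and 10682.5 UMIs, and so held 29.4% and 49.9% of all UMIs of the effector cells. NK cell markers reached that level in 42 and 20 cells, and monocyte and macrophage markers in 35 and 17. Of 1484 and 973 UMIs of the NK cell list, Fcer1g, which is on both lists, held 583 and 525, and Tyrobp held 581 and 389. Ncr1 had 37 and 3 UMIs and Klra8 39 and 0, so the count of cells with NK cell markers is not a count of barcodes with an NK cell. Scrublet, a doublet caller, marked 33 and 11 effector cells, of which 28 and 11 were among them. Leaving them out kept 224 and 82 cells with markers of 1 lineage, holding 890107 and 232074 UMIs with medians of 3849 and 2413 UMIs per cell. In these cells the NK cell markers summed to 165 CPM (UMIs of a gene per 1000000 UMIs of the group) in the C435A library and 284 CPM in the WT library, the B cell markers to 244 and 340 CPM, and the monocyte and macrophage markers to 464 and 952 CPM. The NK cell marker Gzmc and the B cell marker Pax5 were at 0 in both libraries, as were Ncr1, Klrb1f, Klra8 and Klri2 in the WT library. Over all effector cells Gzmc had 1 and 0 UMIs and Pax5 0 and 0, so their zeros do not show an effect of the limit. Other markers remained, among them Eomes (64 and 28 UMIs), Tyrobp (35 and 12), Fcer1g (22 and 12) and Klrb1c (14 and 13). Of the B cell list, Ighm had 81 and 19 UMIs and Cd74 66 and 23. The part of other cells' RNA in the results was not tested. Values below are for the cells with markers of 1 lineage, the C435A library first, unless all effector cells are named.

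**Figure D1:**
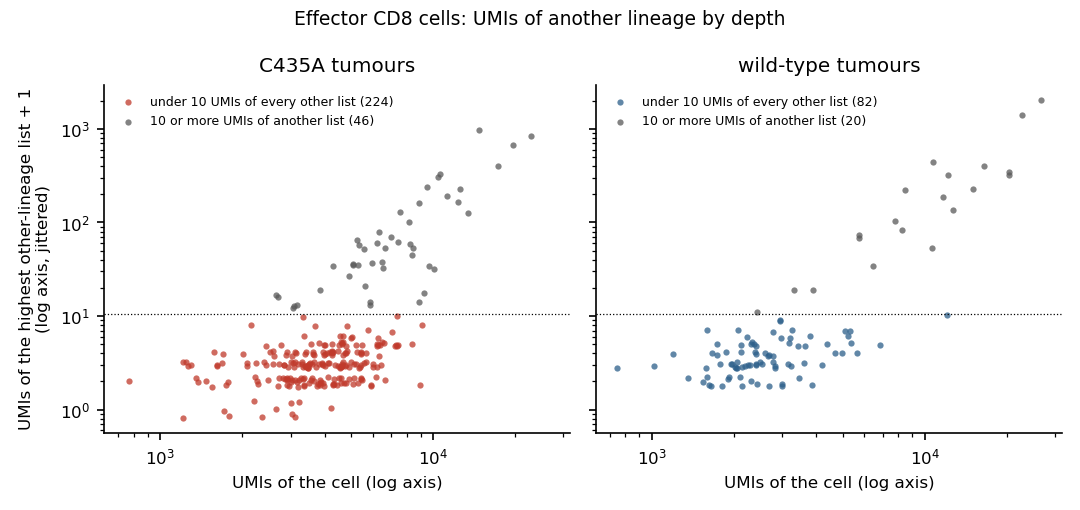
Each point is 1 effector cell, with its total UMIs on the x axis (log scale) and 1 plus the highest summed UMIs of any other lineage's marker list on the y axis (log scale, jittered), for the C435A library and the WT library. The grey cells above the dotted line, 46 and 20 with 10 UMIs or more, lie toward the deep end of the x axis and were left out of the cells with markers of 1 lineage.

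The receptors that chose the cells were unevenly combined, and this is a description, since the rule used them. A Cx3cr1 UMI was present in 79.0% of the 224 cells and 80.5% of the 82 cells, a Klrg1 UMI in 64.3% and 56.1%, and an S1pr5 UMI in 53.6% and 54.9%. All 3 were seen in 30.4% and 25.6% of cells, exactly 2 in 36.2% and 40.2%, and Cx3cr1 alone in 17.4% and 20.7%. These receptor shares were taken before thinning, at median depths of 3849 and 2413 UMIs, so they carry the difference in depth between the libraries. Over the whole set the median cell had 4 UMIs of the 3 receptors in either library, and 131 UMIs of Ccl5 in the C435A library and 94.5 in the WT library. Levels were 579.7 and 866 CPM for Cx3cr1, 343 and 409 CPM for Klrg1, 220.2 and 293 CPM for S1pr5 and 37389 and 42262 CPM for Ccl5. At the edge of the rule, 48 and 17 effector cells entered on a single receptor UMI and 2 and 2 on exactly 2 UMIs of Ccl5. Just outside it lay 105 and 35 cells with exactly 1 Cxcr6 UMI, 68 and 17 with exactly 1 UMI of Mki67 or Top2a, and 8 and 7 with 1 UMI of Ccl5. Zeb2, which was not used by the rule, was found in 41.9% and 66.7% of thinned cells and in 65.6% and 78.0% before thinning. Tbx21 was found in 26.5% and 24.4% of thinned cells (48.2% and 41.5% before thinning).

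The effector cells were set beside CD8 T cells with at least 2 UMIs of Ccl5 and a Cxcr6 UMI, but with none of the 3 receptors and no cycling UMI (134 and 77 cells with markers of 1 lineage, medians of 4125 and 3226 UMIs). The rule reads Ccl5, Cxcr6 and the 3 receptors in both groups of cells, so only other genes are compared, within each library. Of 3676 genes with enough UMIs, 3.81% were higher and 3.51% lower in the effector cells by at least 1.5-fold in both libraries, 140 and 129 genes. Over all cells of both kinds the shares were 4.16% and 2.35%. With 2 libraries an exact permutation test of the pairs cannot go below p = 0.5, so none was run.

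Several genes of killing and of the effector state were higher in the effector cells. Zeb2 stood at 446 against 32.9 CPM in the C435A library and 779.9 against 7.70 CPM in the WT library, log2 ratios of 3.76 [3.1, 4.51] and 6.66 [4.79, 9.72]. Gzma, a granzyme that killer cells release into targets, stood at 11440.2 against 1243 CPM in the C435A library and 10303 against 227 CPM in the WT library, with log2 ratios of 3.20 [3.09, 3.31] and 5.50 [5.13, 5.90]. Both genes were far apart between the 2 kinds of cells in either library. In thinned cells the median number of Gzma UMIs was 16 in effector cells and 0 in Cxcr6 cells of the C435A library, and 14 and 0 in the WT library. A Gzma UMI was seen in 91.6% against 37.8% and 83.3% against 11.7% of thinned cells (93.3% against 51.5% and 82.9% against 13% before thinning). Thinned B cells, which should lack the gene, held it in 7.63% and 2.32%, at medians of 2253 and 1997.5 UMIs. The other granzyme gene Gzmb had log2 ratios of 1.37 and 4.24, Prf1, which encodes perforin, 0.83 and 1.26, and Tbx21 1.57 and 2.03. Of the cytotoxic granule list, 4 of 14 measured genes were higher in both libraries and 1, the cathepsin gene Ctsw, was lower (-0.79 and -0.76), with list medians of 0.26 and 1.15 against -0.03 and 0.10 over all genes. Of 13 effector transcription factors, 4 were higher and 0 lower, namely Zeb2, Tbx21, Bhlhe40 (1.21 and 2.24) and Runx1 (1.31 and 1.28).

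Receptors shared with NK cells followed the same order. Klre1, which encodes a lectin-like receptor, had 193 against 16 UMIs and 100 against 21 UMIs, log2 ratios of 2.97 and 2.41. Il18rap, a chain of the interleukin 18 receptor, had ratios of 1.47 and 1.64, and the inhibitory receptor chain Klrc1 0.83 and 1.42. In all, 4 of 10 measured NK receptor genes were higher in both libraries and 0 lower. Of the S100 and cytoskeleton list, 5 of 16 were higher, among them the galectin gene Lgals1 (1.37 and 2.70), the giant scaffold gene Ahnak (0.60 and 1.70) and the filamin gene Flna (0.82 and 1.38). Among genes of migration, 2 of 16 were higher, the transcription factor Klf2 (1.46 and 0.66), which switches on S1pr1, and the beta 2 integrin gene Itgb2 (0.71 and 1.65). S1pr1 itself had log2 ratios of 0.51 and -0.25, within 1.5-fold in both libraries. The oxysterol receptor gene Gpr183 (-2.27 and -3.26) and the chemokine receptor gene Cxcr3 (-1.69 and -1.93) were the 2 of that list that were lower. Also named by rule as higher were As3mt, an arsenic methyltransferase (3.49 and 3.71), and Borcs7, a subunit of a complex that positions lysosomes (1.65 and 3.22). So were the endothelial proteoglycan gene Esm1 (2.32 and 2.58) and Rap1gap2, a regulator of the small GTPase Rap1 (1.85 and 3.25). Esm1 had 16 UMIs in effector cells and 0 in Cxcr6 cells of the WT library, so that ratio was computed with the 0 set to 3 UMIs.

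Genes of memory and of lymphoid homing were lower in the effector cells. Of 9 measured genes of the naive and memory list, 7 were lower and 0 higher, with medians of -0.87 and -1.65. Il7r, the receptor for the survival cytokine interleukin 7, had 38.2 against 230.5 CPM in the C435A library and 81.9 against 501 CPM in the WT library, log2 ratios of -2.59 [-3.18, -2.04] and -2.61 [-3.39, -1.91]. It was seen in 3.72% against 26.0% and 7.69% against 46.8% of thinned cells (8.48% against 38.8% and 11% against 62.3% before thinning). Tcf7, the transcription factor of self-renewing T cells, had ratios of -1.22 and -2.27 and the costimulatory receptor gene Cd27 -0.86 and -1.25. Lef1 (-0.06 and -1.35) and Satb1 (-0.16 and -1.55) were past 1.5-fold in the WT library only, and the difference between libraries was not tested. Xcl1, a chemokine for cross-presenting dendritic cells, was at 2 against 28 UMIs and 2 against 30 UMIs. The lymphotoxin gene Ltb (-1.91 and -2.21), the signalling regulator Rgs10 (-3.69 and -4.42) and the surface protein gene Ly6e (-1.55 and -2.36) were lower as well. Of the cytokine and chemokine list, Ltb and Xcl1 were the 2 of 5 measured genes that were lower and the chemokine gene Ccl3 was the 1 higher (1.13 and 2.92), with list medians of 0.37 and 1.04. Costimulatory receptors Icos (-1.20 and -1.65) and Cd28 (-1.0 and -0.96) and the adhesion receptor Cd44 (-0.91 and -1.67) were lower, 3 of 12 on their list, and 1, the receptor gene Slamf7, was higher (0.83 and 1.09). Of 23 type I interferon response genes, 7 were lower and 0 higher. Of 6 measured genes of the residency list, 2 were lower and 1 higher, with list medians of -0.22 and 0.28. The lower ones were Cd69 (-0.66 and -0.63) and Itga1 (-0.80 and -1.70). The higher one was Nr4a1, a gene induced by antigen receptor signals (1.11 and 1.95).

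**Figure D2:**
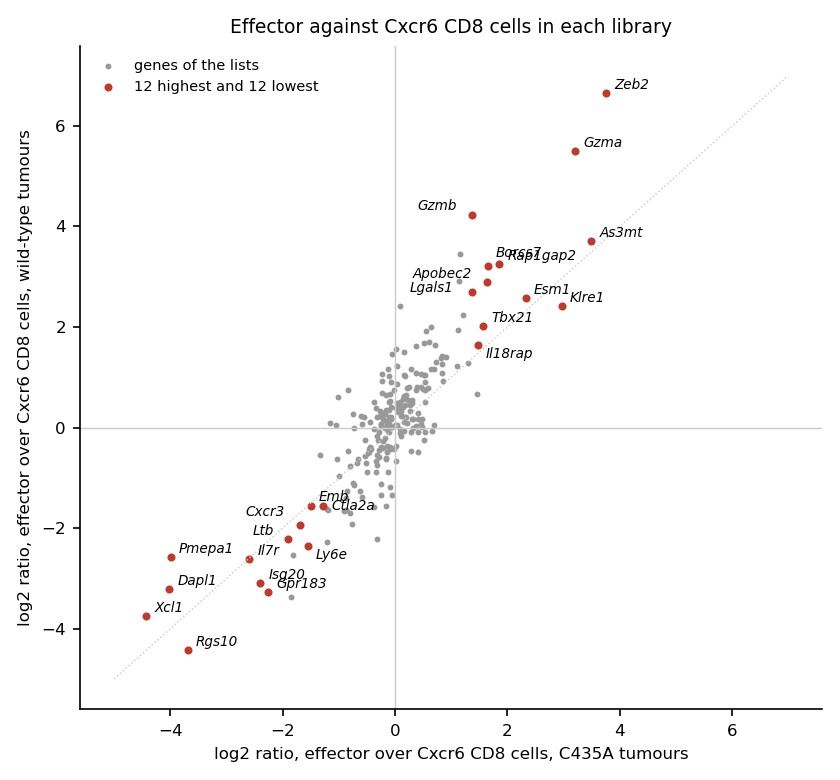
Each point is 1 gene, with its log2 ratio of CPM in effector cells over Cxcr6 CD8 T cells in the C435A library on the x axis and in the WT library on the y axis; red points are the 12 highest and 12 lowest genes, grey points other genes of the lists. Zeb2 lies furthest to the upper right, at 3.76 and 6.66, and Xcl1 (-4.43 and -3.75) and Rgs10 (-3.69 and -4.42) lie at the lower left.

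NK cells with the same receptors (346 and 163 cells with markers of 1 lineage, medians of 2177.5 and 2054 UMIs, chosen by at least 2 UMIs of Ncr1 and Klrb1c, at least 1 of the 3 receptors and no Trac or cycling UMI) had far more transcripts of NK receptor genes. Of 4451 genes, 5.10% were higher and 10.1% lower in the effector T cells in both libraries, 227 and 449 genes, and over all cells of both kinds the shares were 5.88% and 6.99%. Among NK receptor genes 14 of 17 were lower and 1 higher, with medians of -3.27 and -3.04. The Ly49 receptor gene Klra8 had 2 against 827 UMIs and 0 against 279 UMIs, and the signalling adaptors Fcer1g (-7.22 and -6.22) and Tyrobp (-6.55 and -6.0) and the transcription factor Irf8 (-6.22 and -6.82) were lower too. Klra8, Fcer1g and Tyrobp are on the NK cell marker list. That list had to stay under 10 UMIs in the effector cells but not in the NK cells, which bore on these ratios. Over all cells of both kinds, 14 of 17 NK receptor genes were also lower and 1 higher, with medians of -2.73 and -2.27. Of the cytotoxic granule list 6 of 13 were lower and 1 higher. Gzma had log2 ratios of -0.71 and -0.95 and Prf1 -3.15 and -3.02, while Gzmk, a granzyme of T cells, was the higher one (4.16 and 5.59). The median number of Gzma UMIs per thinned NK cell was 27 and 31, against 16 and 14 in the effector cells. Zeb2 stood at 446 against 647 CPM in the C435A library and 779.9 against 766 CPM in the WT library, ratios of -0.54 and 0.03. Genes named by rule as higher in the effector cells, which had to hold T cell receptor complex transcripts while the NK cells had to lack Trac, included Themis (6.09 and 4.43), Bcl11b (4.20 and 5.39), Cd5 (6.73 and 5.66), Cd6 (6.93 and 4.39) and Thy1 (3.08 and 4.50). The kallikrein gene Klk8 (143 against 2 UMIs and 65 against 3 UMIs) and Apobec2, a relative of cytidine deaminases (82 against 2 UMIs and 20 against 0 UMIs), were higher too, against 0 to 3 UMIs in these NK cells.

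Against naive CD8 T cells (272 and 878 cells with markers of 1 lineage, medians of 2855 and 3030 UMIs, chosen by a transcript of naive T cells and none of Ccl5, Cxcr6, the 3 receptors or the cycling genes), 13.6% of 7044 genes were higher and 10.6% lower in both libraries. Over all cells of both kinds these shares were 16.0% and 9.16%. All 11 measured genes of the naive and memory list were lower (medians of -2.87 and -2.76); the genes that chose the naive cells are not among them. Tcf7 had log2 ratios of -2.87 and -2.91 and Lef1 -2.42 and -3.03. Dapl1, an epithelial gene expressed in naive T cells, had 4 against 510 UMIs and 0 against 1590 UMIs. Of the S100 and cytoskeleton list 16 of 17 were higher, with S100a6 at 5.19 and 6.55 and S100a4 at 5.67 and 6.03. Higher genes also made up 11 of 15 of the cytotoxic granule list, 11 of 13 effector transcription factors, 8 of 10 NK receptors and 10 of 16 migration genes, of which 2 were lower. Gzma had ratios of 8.15 and 9.72, Gzmb 7.50 and 9.14, Zeb2 6.47 and 7.17, and the chemokine gene Ccl4 6.67 and 6.82. Interferon gamma response genes went the other way, with 7 of 20 lower and 2 higher.

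**Figure D3:**
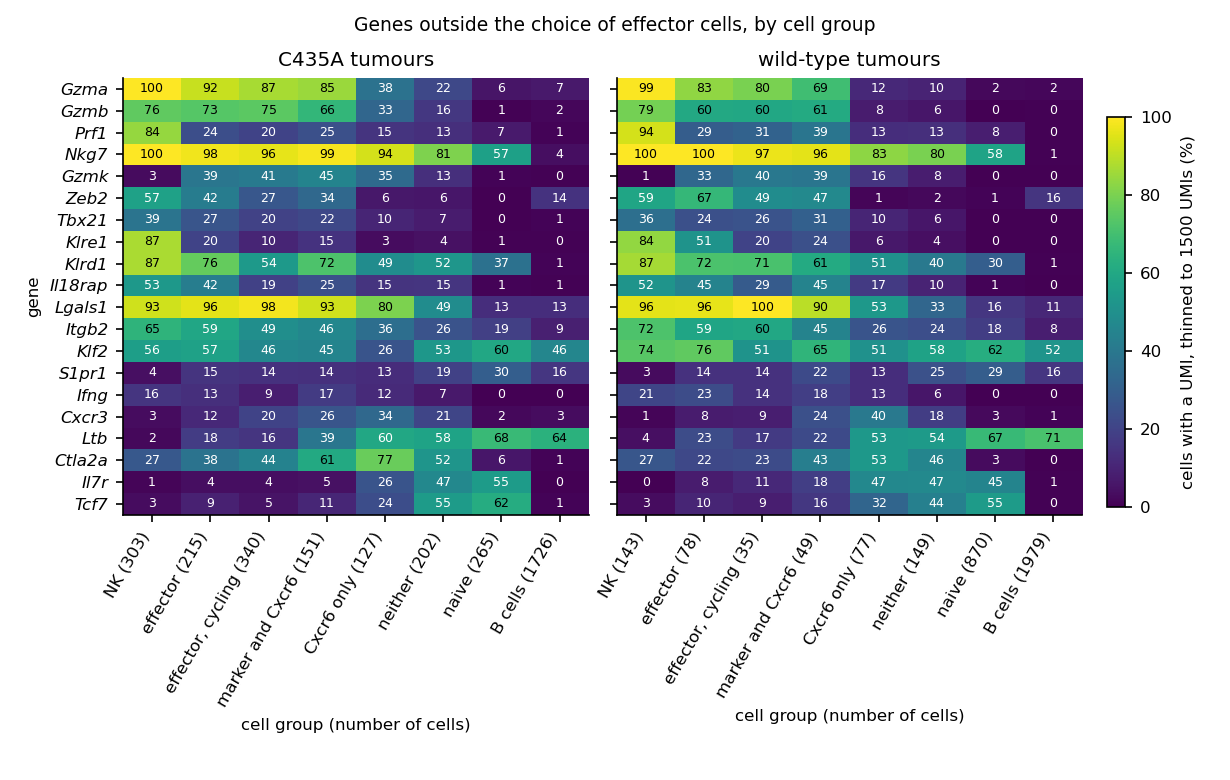
Colour and number give the percent of cells with a UMI of each gene after thinning to 1500 UMIs, with genes as rows and kinds of cells with markers of 1 lineage as columns, for the C435A library (left) and the WT library (right). Gzma was seen in 91.6% and 83.3% of effector cells and 37.8% and 11.7% of cells with Cxcr6 only, and Il7r in 3.72% and 7.69% and 26.0% and 46.8%.

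Among the effector cells, genes of the state varied with the number of receptors seen. Cells with 1, 2 or 3 of the receptors numbered 75, 81 and 68 in the C435A library and 28, 33 and 21 in the WT library, with median depths of 3394, 3999 and 3989 UMIs and of 2113, 2411 and 2968 UMIs. After thinning, Zeb2 was seen in 25.8%, 48.1% and 50% of these cells in the C435A library and in 53.8%, 71.0% and 76.2% in the WT library. Before thinning the shares were 48%, 76.5% and 72.1% and 60.7%, 84.8% and 90.5%. Gzma was seen in 83.3%, 93.8% and 97.1% and 57.7%, 93.5% and 100% of thinned cells. Ltb went the other way, with 30.3%, 13.6% and 10.3% and 34.6%, 16.1% and 19.0%, and thinned B cells, which make Ltb themselves, held it in 61.4% and 67.2%. The cells with 1 receptor were also the shallowest in either library, so receptors missed for lack of depth and receptors not expressed cannot be told apart.

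Splitting the cells by a Klrg1 UMI showed few genes that differed. Cells with it had medians of 4134.5 and 2822 UMIs, and cells without it 3308 and 2076.5. Of 1872 genes, 0.801% were higher and 0.641% lower with Klrg1 by at least 1.5-fold in both libraries, 15 and 12 genes, and no list had more than 1 such gene in either direction. Over all effector cells the shares were 1.07% and 2.49%. Among the genes named by rule, the receptor gene Cd96 had log2 ratios of 0.92 and 2.24, past 1.5-fold in both libraries. Gzma (0.49 and 1.04) was past it in the WT library only, and the scaffold gene Ahnak (0.25 and 0.49) and the oxidase subunit gene Cyba (0.33 and 0.54) in neither. The interferon-inducible gene Ifi27l2a (-0.63 and -1.27), the galectin gene Lgals3 (-0.66 and -0.76) and Itpkb, a kinase of inositol phosphates (-0.85 and -1.19), were lower by at least 1.5-fold in both. Gzma per cell was also spread widely. The middle of the thinned effector cells spanned 6 to 26.5 Gzma UMIs in the C435A library and 3.25 to 22 in the WT library (lower to upper quartile), the highest cell had 58 and 67, and 8.37% and 16.7% of cells had 0.

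The effector cells made up a larger share of CD8 T cells in the C435A library. They made up a smaller share of those with Ccl5 when cycling cells were counted among the latter. Of all CD8 T cells with markers of 1 lineage they were 224 of 2124 (10.5% [9.27, 11.9]) and 82 of 1940 (4.23% [3.38, 5.22]), a difference of 6.32 percentage points [4.74, 7.92]. With every barcode thinned to 1500 UMIs before the rule was applied, the shares were 14.2% and 5.35%. CD8 T cells as a whole were 20.6% and 19.3% of kept cells, and naive cells were 12.8% and 45.3% of CD8 T cells. Of CD8 T cells with at least 2 UMIs of Ccl5, the effector cells were 224 of 1524 (14.7%) and 82 of 430 (19.1%), a difference of -4.37 points [-8.70, -0.46]. After thinning this was 21.8% and 28.8%, -7.09 points [-12.8, -1.75]. The rule bars cells with a cycling UMI, but these cells with Ccl5 include them. They were 798 of 1524 and 65 of 430, and after thinning 404 of 1172 and 34 of 312. The smaller share therefore does not describe the cells with Ccl5 and no cycling UMI. All intervals are for counting error alone, and since the rule set these cells, the shares are a description.

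Cycling cells made up more of the CD8 T cells with Ccl5 in the C435A library. Of CD8 T cells with Ccl5, those with a UMI of Mki67 or Top2a were 52.4% and 15.1%, cells with Cxcr6 alone 8.79% and 17.9%, cells with both Cxcr6 and a receptor 9.97% and 11.9%, and cells with neither 14.2% and 36.0%. Thinning lowered the cycling share to 34.5% and 10.9%. It brought the cells with neither closer together between the libraries, at 30.0% and 35.9%. Cells with Cxcr6 alone were then 9.04% and 18.6%, and cells with both Cxcr6 and a receptor 4.69% and 5.77%. Cells that met every other condition of the rule but had a cycling UMI, the cycling counterparts of the effector cells, numbered 342 and 35. They were 60.4% of themselves and the effector cells together in the C435A library and 29.9% in the WT library, 30.5 points apart [20.8, 39.0]. With thinning these were 148 of 403 (36.7%) and 20 of 110 (18.2%), 18.5 points apart [9.13, 26.3]. The counterparts were deep cells, with medians of 8030.5 and 3951 UMIs.

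**Figure D4:**
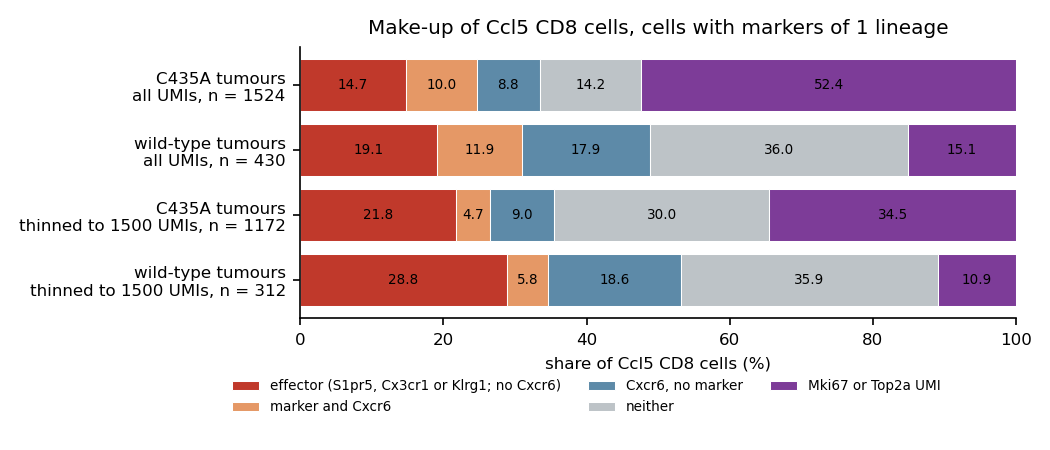
Bars give the makeup of CD8 T cells with at least 2 UMIs of Ccl5 in percent of those cells, before and after thinning to 1500 UMIs, for the C435A library and the WT library, by receptors, Cxcr6 and cycling transcripts. The effector cells are 14.7% and 19.1% before thinning, and the cycling cells are 52.4% and 15.1%.

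Between the libraries, 758 of 5883 genes were higher (12.9%) and 961 lower (16.3%) by at least 1.5-fold in the effector cells of the C435A library. Over all effector cells the counts were 851 (11.2%) and 1267 (16.7%) of 7597 genes. The split depended on the scaling. With TMM it was 1175 higher and 598 lower in the cells with markers of 1 lineage and 1239 and 939 over all effector cells, and thinning gave 494 and 498 in the former. TMM scaling would add 0.17 to each log2 ratio below (0.14 over all effector cells), and the list medians between -0.17 and 0 (cytotoxic granule, type I interferon, costimulation) would then be above 0. Genes just past 1.5-fold on the lower side, such as Klf6 and Rora, would be within it. The median of all genes was -0.03.

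Heat shock genes, which encode chaperones and are switched on by heat and other stress, were lower in the effector cells of the C435A library. Of 10 measured, 6 were lower by at least 1.5-fold and 0 higher, with a median of -0.94, and over all effector cells the counts were the same with a median of -0.71. Hspa1a stood at 143 and 582 CPM, a log2 ratio of -2.03 [-2.39, -1.67]. Hspa1b stood at 107 and 315 CPM (-1.56 [-2.01, -1.10]), Dnajb1 at 80.9 and 233 CPM (-1.52 [-2.05, -0.99]) and Hsph1 at 83.1 and 177 CPM (-1.09 [-1.66, -0.50]). The constitutive chaperone genes Hspa8 (-0.47) and Hsp90ab1 (-0.37) were within 1.5-fold. A Hspa1a UMI was seen in 11.2% and 32.1% of thinned effector cells (19.2% and 39.0% before thinning) and in 20.2% and 27.2% of thinned B cells. The log2 ratio of Hspa1a was -1.82 in Cxcr6 CD8 T cells, -1.39 in NK cells, -0.77 in B cells (here and below, for ratios, B cells with markers of 1 lineage), -0.50 in naive CD8 T cells and 0.09 in the cycling counterparts.

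Hspa1a and Hspa1b are near-identical copies, so UMIs of one may have been counted for the other. Their promoters are shown because heat shock factors bind there. In RefSeq (build GRCm38.p6) the 250 bases before the 2 starts are chr17:34972157-34972406 and chr17:34959239-34959488, both on the minus strand, and 247 of the 250 bases were the same. Written 5′ to 3′, with the match to GAANNTTC, the core letters of the heat shock element, in capitals, they read:
Hspa1a: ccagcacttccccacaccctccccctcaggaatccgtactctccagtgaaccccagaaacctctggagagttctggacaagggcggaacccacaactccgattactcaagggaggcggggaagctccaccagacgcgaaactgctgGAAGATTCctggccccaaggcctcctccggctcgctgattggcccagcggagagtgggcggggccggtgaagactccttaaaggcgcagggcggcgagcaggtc
Hspa1b: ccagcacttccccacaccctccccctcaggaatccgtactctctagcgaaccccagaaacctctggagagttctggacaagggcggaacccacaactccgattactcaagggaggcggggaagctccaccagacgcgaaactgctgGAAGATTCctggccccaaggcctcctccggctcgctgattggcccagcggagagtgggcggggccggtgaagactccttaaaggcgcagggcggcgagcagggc
Each has 1 match, starting 104 bases before the transcription start. The motif reads the same on both strands, and it occurred in 6.69% of 32851 RefSeq promoters of this length. Of the 11 genes on the heat shock list 8 were found in RefSeq's table with 13 promoters, of which 6 (46.2%) held a match, in 6 genes. These are not 6 independent sites. The windows of Hspd1 and Hspe1 overlap on opposite strands and their matches are the same bases, and Hspa1a and Hspa1b are copies. Dnajb1 and Hsph1, both lower by at least 1.5-fold, had none in this window.

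Immediate early genes, which are transcribed within minutes of a stimulus and include the AP-1 factors, were lower too. Of 14 measured, 9 were lower and 0 higher, with a median of -0.86. Over all effector cells 3 of 15 were lower, with a median of -0.30. Fos stood at 71.9 and 215 CPM (-1.58 [-2.14, -1.02]), Jun at 158 and 448 CPM (-1.5 [-1.88, -1.12]), the phosphatase gene Dusp1 at 96.6 and 241 CPM (-1.32 [-1.82, -0.81]) and the antiproliferative gene Btg2 at 576 and 1176 CPM (-1.03 [-1.24, -0.81]). Junb (-0.48) and Nfkbia (-0.08) were within 1.5-fold. With the mixed barcodes kept, Fos was at -0.30, Dusp1 at -0.41 and Btg2 at -0.52, within 1.5-fold. Fos was seen in 6.51% and 20.5% of thinned effector cells (20.1% and 30.5% before thinning) and in 21.6% and 21.9% of thinned B cells. The ratio of Fos was -1.78 in Cxcr6 CD8 T cells, -1.10 in CD8 T cells with Cxcr6 and a receptor, -0.38 in NK cells, 0.07 in naive CD8 T cells and 0.06 in B cells. The ratio of Jun was -1.52, -1.43, -0.58, -0.07 and -0.28 in the same order.

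Of the effector transcription factors 5 of 14 were lower and 1 higher, with a median of -0.34 (-0.02 over all effector cells, where 0 were lower and 1 higher). Zeb2 stood at 446 and 779.9 CPM (-0.81 [-1.06, -0.54]), and was seen in 41.9% and 66.7% of thinned cells. Its ratio was -1.19 in the cycling counterparts, -1.38 in CD8 T cells with Cxcr6 and a receptor, -0.24 in NK cells and -0.18 in B cells. In Cxcr6 CD8 T cells Zeb2 was higher in the C435A library, as the CPM given above show. After thinning, 93.7% and 98.7% of those cells had no Zeb2 UMI. Bhlhe40 (197 and 345 CPM, -0.81 [-1.20, -0.41]), Eomes (71.9 and 121 CPM, -0.75 [-1.41, -0.05]), Klf6 (-0.66) and Rora (-0.65) were the other genes lower by at least 1.5-fold, and Batf (58 and 9 UMIs, 0.75 [-0.27, 1.95]) was the one higher. Tbx21 (206 and 219.8 CPM, -0.10 [-0.55, 0.38]), Runx3 (-0.21) and Id2 (-0.14) were within 1.5-fold. These 5 lower genes were within it over all effector cells, with Zeb2 at -0.54, Bhlhe40 at -0.58, Klf6 at -0.36, Eomes at -0.05 and Rora at -0.0049. Eomes is on the NK cell marker list, so the limit for other lineages bore on its ratio.

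Genes of killing depended on whether barcodes with other lineages were left out. Of 15 measured, 2 were higher and 3 lower, with a median of -0.08, whereas over all effector cells 6 were higher and 1 lower with a median of 0.44. Gzma stood at 11440.2 and 10303 CPM (0.15 [0.09, 0.22]), Gzmb at 1366 and 1017 CPM (0.43 [0.22, 0.63]), Prf1 at 210.1 and 267 CPM (-0.35 [-0.77, 0.09]) and Nkg7, a granule membrane protein gene, at 3145 and 3714 CPM (-0.24 [-0.35, -0.13]). Over all effector cells the log2 ratio of Gzma was 0.73 and that of Gzmb 0.99. The granzyme inhibitor gene Serpinb6b (0.82 [0.31, 1.36]) and Rab27a, which docks granules (37 and 5 UMIs, 0.95 [-0.40, 2.65]), were higher, and Lamp1 (-0.86), the death ligand gene Fasl (-0.76) and the priming factor gene Unc13d (-0.68) lower. Of the cytokine and chemokine genes, Ifng, which activates macrophages, stood at 113 and 237 CPM (-1.06 [-1.55, -0.56]), and was seen in 13.5% and 23.1% of thinned cells (29.0% and 30.5% before thinning, 0.261% and 0.179% in thinned B cells). Ccl4 stood at 385 and 487 CPM (-0.34 [-0.65, -0.02]). Ifng and Tnfsf10 were the 2 of 5 that were lower, and 0 were higher. The ratio over all effector cells was -0.32 for Ifng, -0.18 for Fasl and -0.19 for Unc13d, within 1.5-fold.

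The NK receptor list likewise turned on the mixed barcodes. With markers of 1 lineage 4 of 12 genes were lower and 0 higher (median -0.26), and over all effector cells 8 of 18 were higher and 3 lower (median 0.49). Fcer1g (-1.06) and Klrb1c (-1.83) were among those 4 lower genes. Both are on the NK cell marker list, so the limit for other lineages bore on their ratios. Over all effector cells they were at -1.29 and -0.12. Klre1 stood at 217 and 431 CPM (-0.99 [-1.35, -0.63]), seen in 20% and 51.3% of thinned cells (33.5% and 56.1% before thinning), while its ratio was 0.06 in NK cells and -0.36 over all effector cells. Klrd1, the partner chain of the Nkg2 receptors, stood at 1129 and 801 CPM (0.49 [0.27, 0.73]), and Klrk1, which encodes the activating receptor NKG2D, at 279 and 276 CPM (0.01 [-0.39, 0.43]). The naive and memory list moved the other way between the sets, with 8 of 13 lower and a median of -1.04 over all effector cells, and 1 of 7 higher, 2 lower and a median of 0.42 with markers of 1 lineage. The WT library's mixed barcodes carried more B cell marker UMIs (4687 CPM over all effector cells, against 1231 CPM in the C435A library). Lef1 (0.89 [0.19, 1.67]) was the gene higher, and Il7r (-1.10 [-1.95, -0.21]) and Bcl2 (-0.86 [-1.56, -0.13]) were lower. Lef1 was at 0.30 over all effector cells.

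Among genes of migration, 3 of 16 were higher, 1 lower, and the median was 0.08. Klf2 was the one lower, at 568 and 987 CPM (-0.80 [-1.02, -0.56]), and its ratio was -1.60 in Cxcr6 CD8 T cells, -0.52 in NK cells and -0.43 in B cells. The higher genes included Ccr2, a receptor for inflammatory chemokines (0.60 [0.03, 1.23]), and Gpr183 (24 and 4 UMIs, 0.65 [-0.90, 2.63]). Ccr2 is on the monocyte and macrophage marker list, whose sum was limited in these cells, which bore on its ratio. It had 240 and 112 UMIs over all effector cells, and 169 and 29 UMIs with the limit. S1pr1 (0.11 [-0.50, 0.78]), S1pr4 (-0.03), Itgal (-0.29) and Ly6c2 (0.25) were within 1.5-fold. When all effector cells were taken, 3 of 16 were higher and 0 lower, Ccr2 turned to -0.34, and Gpr183 (0.44) and Klf2 (-0.35) were within 1.5-fold. Costimulatory and cytokine receptors had 3 of 12 higher and 1 lower and a median of -0.12, with Cd28 at 220.2 and 99.1 CPM (1.15 [0.52, 1.84]), Icos at 49 and 6 UMIs (1.09 [-0.13, 2.60]) and Cd44 at 77 and 9 UMIs (1.16 [0.16, 2.34]) higher. Among 13 measured over all effector cells, 3 were higher and 2 lower, with a median of 0.10, and Cd44 was at 0.10.

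Type I interferon response genes, which IRF7 controls in cells that make it, were past 1.5-fold in both directions. Of 23 measured, 2 were higher and 6 lower, with a median of -0.10, which TMM scaling would turn above 0, and over all effector cells 13 of 35 were lower and 0 higher with a median of -0.43. Irf7 of the T cells themselves had 36 and 17 UMIs (-0.86 [-1.73, 0.07]), and Isg15, a ubiquitin-like protein gene, 30 and 14 UMIs (-0.84 [-1.80, 0.19]), both with intervals that span 0. Irf7 over all effector cells was at -0.40, Isg15 at -0.54 and the class I gene H2-Q6 at -0.02. Interferon gamma response genes had 3 of 16 lower and 0 higher (median -0.19), and MHC class I genes 1 of 8 lower, H2-Q6 (-0.73), with a median of -0.24.

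Transcripts of cell division were somewhat higher in the C435A library although the rule had removed cells with Mki67 or Top2a. Of 16 measured, 7 were higher and 1 lower, with a median of 0.49, against 10 of 17 higher and 1 lower and a median of 0.76 over all effector cells. Ube2c, which encodes a mitotic ubiquitin ligase subunit, had 75 and 4 UMIs (2.29 [0.87, 4.20]), the chromatin gene Hmgb2 stood at 1094 and 694 CPM (0.66 [0.42, 0.91]) and the replication helicase gene Mcm3 at 67 and 8 UMIs (1.13 [0.07, 2.40]). Pcna, the replication clamp, was within 1.5-fold (-0.11 [-0.59, 0.40]), and Rrm1 was the one lower (19 and 15 UMIs). The median depth of these cells was 3849 UMIs in the C435A library and 2413 in the WT library, and its part in this was not tested.

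The remaining lists had 2 or 3 genes past 1.5-fold. S100 and cytoskeleton genes had 1 of 17 higher, S100a4 (0.62 [0.39, 0.85], 0.41 over all effector cells), and 1 lower, Lgals3 (-0.61 [-0.95, -0.27]), with a median of 0.13. Glycolysis genes had 1 of 14 higher and 2 lower (median 0.10), the BCL2 survival family 0 of 11 higher and 2 lower (median -0.30), and the SOCS and receptor feedback list 0 of 10 higher and 3 lower (median -0.27). The residency list had 0 of 6 higher and 2 lower (median -0.46). The lower ones were Rgs2 (-0.70) and Nr4a1 (-1.25), which is also on the immediate early list, while Cd69 (-0.32) and Itga1 (-0.44) were within 1.5-fold. The list of inhibitory receptors and exhaustion had 0 of 5 higher and 2 lower (median -0.42). The lower ones were Nr4a2 (-0.89) and Entpd1 (-0.77), and the inhibitory receptor gene Havcr2 (-0.42) was within 1.5-fold. Pdcd1, Lag3, Tigit and Ctla4 had too few UMIs to be measured.

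**Figure D5:**
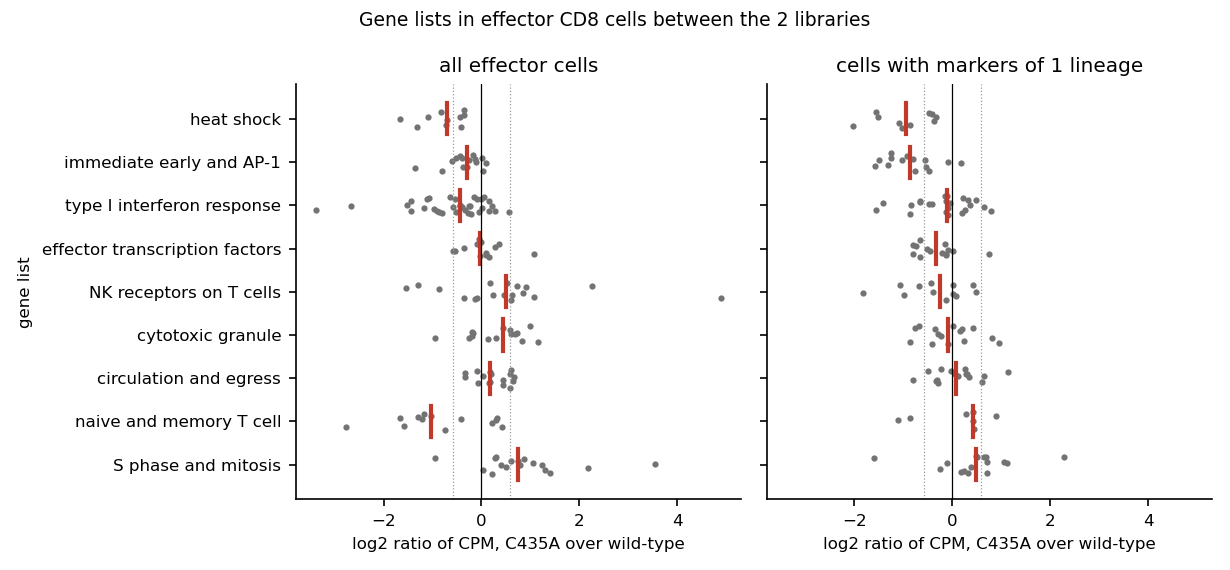
Points give the log2 ratio of CPM, C435A library over WT library, of every measured gene of 9 lists, with the list's median as a red line and dotted lines at 1.5-fold, in all effector cells (left) and in those with markers of 1 lineage (right). On the right the heat shock list (median -0.94) and the immediate early list (median -0.86) lie furthest below 0; the naive and memory list has its median at -1.04 on the left and 0.42 on the right.

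Of single genes, the 12 highest and 12 lowest by the interval bound nearest 0 were named by rule. On the lower side, 7 have been given with the heat shock and immediate early lists, and Hsp90aa1 (-1.02 [-1.31, -0.74]) belongs to the first list as well. Also named were Txk, a kinase of the T cell receptor pathway (184 and 388 CPM, -1.07 [-1.45, -0.69]), Fabp5, a fatty acid carrier (25 and 30 UMIs, -2.20 [-3.03, -1.39]), and the macrophage lysozyme gene Lyz2 (119 and 508 CPM, -2.09 [-2.49, -1.70]). Lyz2 is on the monocyte and macrophage marker list, so the limit for other lineages bore on its level. Over all effector cells its ratio was -1.49. Lyz2 was seen in 18.6% and 59.0% of thinned effector cells (35.3% and 76.8% before thinning) and in 25.5% and 52.0% of thinned B cells, so its share lay close to that of cells that should lack it. Its ratio was -1.57 in B cells, -1.27 in naive CD8 T cells and -1.80 in Cxcr6 CD8 T cells. Fabp5 was seen in 5.58% and 20.5% of thinned effector cells (10.7% and 26.8% before thinning) and 4.29% and 12.4% of thinned B cells.

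On the higher side, Plac8, a small cysteine-rich protein gene, stood at 853 and 289 CPM (1.56 [1.20, 1.95]), with ratios of 1.5 in Cxcr6 CD8 T cells, 1.02 in NK cells and 0.61 in B cells. Pycard, the adaptor of inflammasomes, stood at 1158 and 612 CPM (0.92 [0.67, 1.18]), and was seen in 76.3% and 50% of thinned cells (91.5% and 67.1% before thinning, 21.5% and 17.3% in thinned B cells). Rbm3, an RNA-binding protein gene induced by cold, stood at 1656 and 806 CPM (1.04 [0.82, 1.27]), the mitochondrial chaperone gene Dnajc15 at 756 and 409 CPM (0.89 [0.57, 1.21]), and Ctla2a, a cathepsin inhibitor gene, at 586 and 246 CPM (1.26 [0.86, 1.68]). The actin gene Actg1 (0.64), the actin-binding gene Cotl1 (0.93) and Sh2d1a, the adaptor SAP of SLAM receptors (1.02 [0.52, 1.56]), were also named. Rilpl2 had 118 and 8 UMIs (1.94 [0.92, 3.19]) and the RNA gene Slc36a3os 50 and 1 UMIs (3.70 [1.16, 9.04]). Cd28 and Ube2c, given above, complete the 12.

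Over all effector cells the 12 lowest were known genes of mast cells and macrophages or, for Stab1 and Thbs1, of macrophages and other cells. The mast cell protease genes Cpa3 (0 and 286 UMIs), Mcpt4 (0 and 275), Tpsb2 (0 and 211) and the IgE receptor gene Fcer1a (0 and 63) each came from 1 barcode of the WT library, and 1 barcode held 99.2% of the 374 Cma1 UMIs there. The macrophage genes Spp1 (-4.49), C1qa (-4.33), C1qb (-3.85), C1qc (-3.1), Apoe (-3.68), Stab1 (-4.13) and Thbs1 (-3.89) made up the rest. On the higher side, the NK receptor gene Klra4 (81 and 1 UMIs), Ctsk, of which 60.2% of the UMIs in the C435A library lay in 1 barcode (83 and 9 UMIs), and the sulfatase gene Arsb (112 and 14 UMIs) were named besides Gzmb, Hmgb2 and 7 genes given above. Klra4 had 4 and 1 UMIs in the cells with markers of 1 lineage.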

How the data were processed

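The submitters' processing notes name Cell Ranger and the build GRCm38, and per the file headers the deposited matrices were written by Cell Ranger 7.2.0. They hold counts of UMIs per gene and barcode as deposited by the authors, over 55357 features. The sources used here do not say which annotation release was used or whether introns were counted. Per the labels' protocols, CD45-positive cells were captured with a goal of 8000 cells and sequenced as 150 bp paired ends to at least 20000 reads per cell. The labels name both BD Rhapsody and a 10x Chromium kit. The text tables deposited beside the matrices were not used here.

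Effector cells and every gene list were chosen with earlier results of these data known. UMIs were summed per library and group of cells (Python 3.11.15, numpy 2.4.6, scipy 1.17.1, pandas 2.3.3, matplotlib 3.10.9). CPM are UMIs per 1000000 UMIs of the group. Ratios have exact conditional intervals, shares have Clopper-Pearson intervals, and differences of shares Newcombe intervals, all at 95%. A gene was measured with at least 20 UMIs over the groups compared (in each library, between kinds of cells) and called past 1.5-fold. A count of 0 was set to 3 UMIs in the ratio. Genes of the rule were left out of calls and lists. Lists with at least 3 measured genes are given (20 lists in all), and 4 list genes were not found by symbol. Named genes had at least 50 UMIs and 50 CPM in 1 group, and were the 12 highest and 12 lowest by the interval bound nearest 0. Between kinds of cells, both libraries had to have the same sign and the weaker bound counted. Gene model names, ribosomal, mitochondrial and receptor segment genes were passed over. List members are named as examples from their list. Some genes that the rule or the lists name are not reported here.

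Doublets were not removed from the full set. Scrublet (scanpy 1.11.5) scored them at an assumed 0.8% per 1000 barcodes. The 10 UMI limit for other lineages, and its joint use with other settings, were added after the data were seen. TMM factors came from edgeR 4.0.16 (R 4.3.3). The calculation of ratios and intervals was tested on simulated data. Promoters and the motif came from RefSeq's table.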

Additional observations from a re-analysis of the deposited data

Results flagged for a closer look

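S100a6, a calcium-binding protein gene of activated T cells, stood in opposite order in the 2 libraries when effector cells were set beside Cxcr6 CD8 T cells. Its log2 ratio of effector cells over Cxcr6 cells was -0.23 in the C435A library and 0.69 in the WT library, and neither counting interval reached 0. In thinned cells the median was 3 S100a6 UMIs in effector cells and 3 in Cxcr6 cells of the C435A library, and 2 and 1 in the WT library. The difference between the libraries was not tested, since each group had 1 library.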

How the results depend on the processing

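The difference in the share of CD8 T cells (6.15 points over all effector cells) was 8.80 after thinning, 8.85 after thinning without barcodes of other lineages, and 10.8 when Cxcr6 was not used by the rule. Over all effector cells 851 genes were higher and 1267 lower. With a minimum of 1 UMI per gene these were 1442 and 3482, and with 100 UMIs 188 and 219. Genes lower numbered 596 after thinning and 780 among cells with no Klrg1 UMI. Without barcodes of other lineages, thinning gave 494 higher and 498 lower, TMM 598 lower and median ratio scaling 597 lower. The naive and memory median (-1.04) was -0.10 after thinning and -0.10 with 100 UMIs per gene. It was 0.33 without the highest Scrublet scores, 0.27 with no UMI of 6 genes of other lineages (Ncr1, Klrb1c, Trdc, Ms4a1, Csf1r, Siglech) and 0.61 among cells with a Klrg1 UMI. Without barcodes of other lineages it was 0.42, with TMM 0.59, with median ratio scaling 0.59, and 0.037 with cells weighted alike. The NK receptor median (0.49) was -0.52 after thinning, and -0.34 when barcodes of other lineages were left out as well. The cytotoxic granule median (0.44) was 1.37 among cells with no Klrg1 UMI. The heat shock median (-0.71) was -0.97 among cells with a Klrg1 UMI. The immediate early median (-0.30) was -0.72 with cells weighted alike. Without barcodes of other lineages it was -0.86, with thinning -0.73 and with cells weighted alike -1.05.

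For genes higher and lower in effector cells, thinning gave 101 and 82 against Cxcr6 cells (from 230 and 130), 150 and 258 against NK cells (from 348 and 414), 772 and 470 against naive cells (from 1265 and 724), and 14 and 14 by Klrg1 (from 40 and 93). Without barcodes of other lineages 140 were higher against Cxcr6 cells, 227 against NK cells, and 15 higher and 12 lower by Klrg1. With cells weighted alike 198 were lower against Cxcr6 cells.

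Named genes of all effector cells that changed sign were as follows. With no UMI of the 6 genes of other lineages, Klra4 was at -0.62, C1qa at 2.49, C1qb at 0.036, C1qc at 0.84, Lyz2 at 0.62 and Fabp5 at 1.47. Among cells with no Klrg1 UMI, Cma1 was at 2.34 and Plac8 at -0.0070. Ctsk was at -0.23 without the highest Scrublet scores and -0.13 with cells weighted alike. Without barcodes of other lineages it was at -2.20, with thinning -3.05, with TMM -2.03, with median ratio scaling -2.03 and with cells weighted alike -2.32. The cause of these changes was not tested. No paired analysis was possible because each group had 1 library, and no library could be left out for the same reason. Depth limits the WT library most, with 232074 UMIs in its 82 cells with markers of 1 lineage.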
